A study of Homo sapiens with 12 samples.

Results

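The genes described here are 6 genes of the aryl hydrocarbon receptor (AHR) pathway: the receptor gene AHR, its repressor AHRR, the feedback enzyme TIPARP, the cytochrome P450 genes CYP1A1 and CYP1B1, and the aldehyde dehydrogenase gene ALDH1A3. They were taken by gene name from a table of 62700 genes, and 6 of 6 passed the filter on low counts that 18049 genes passed. Poly(A) RNA came from HCT116 TIM-mAID cells, a human colorectal carcinoma line in which a mAID degron tag was knocked in by CRISPR at TIMELESS, a gene of the replication fork protection complex. All 12 libraries carry the tag and were taken at 40 h, in 4 groups of 3 biological replicates: DMSO, 5-Ph-IAA at 1 µM, ATRi (ceralasertib, an inhibitor of the checkpoint kinase ATR) at 1 µM, and both compounds together (5-Ph-IAA/ATRi). 5-Ph-IAA, 5-phenyl-1H-indole-3-acetic acid, is an auxin analogue that marks the tagged protein for degradation. Untagged cells given 5-Ph-IAA were not analysed here, so a response to the compound itself and a response to loss of TIMELESS cannot be told apart. Whether the line is a single clone is not given in the sources used here.

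AHR is a transcription factor of the bHLH-PAS family that waits in the cytosol with HSP90 until a ligand binds it. Its ligands include dioxins, polycyclic aromatic hydrocarbons and several indoles made from tryptophan or plant food, and intestinal epithelium is a tissue where it is well studied. With a ligand bound it enters the nucleus, pairs with ARNT and binds the core sequence GCGTG near its target genes. CYP1A1, CYP1B1, AHRR and TIPARP are its classic targets, and AHRR and TIPARP in turn dampen it. Because 5-Ph-IAA is itself an indole acid, these genes are a natural place to look for a response to the compound, first without ATRi and then with it.

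The libraries held 27695914 to 34704725 estimated counts each. The share of mitochondrially encoded counts ranged from 6.63% to 14.9%, and it was highest in DMSO 2 and lowest in DMSO 3, so a single group spanned the range of all 12 libraries. Of 10 intestinal epithelial markers, 7 were measurable, led by KRT8, KRT18 and KRT19, while VIL1, CDX1 and CEACAM5 stayed at or below 0.690 CPM (counts per 1000000 counts of the library). Markers of liver cells, which are rich in these P450 enzymes, summed to no more than 2.83 CPM, and TTR was at 0 in 12 of 12 libraries. Immune and endothelial lists summed to at most 1.58 and 2.81 CPM. The fibroblast list summed to 35.7 to 106.5 CPM, nearly all of it COL1A1, with COL1A2 and DCN at 0.254 CPM or less.

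Per kilobase of the longest annotated transcript, ALDH1A3 was the most abundant of the 6 genes in DMSO at 56.5 ± 9.40 CPM per kilobase (SD, n = 3). TIPARP followed at 8.12 ± 1.97, AHR at 5.07 ± 1.93 and AHRR at 2.23 ± 0.985 CPM per kilobase. CYP1A1, at 0.618 ± 0.149, and CYP1B1, at 0.468 ± 0.203 CPM per kilobase, were the lowest. The DMSO libraries of TIPARP and AHR overlapped on this scale, as did those of AHR and AHRR and those of CYP1A1 and CYP1B1. ALDH1A3 stood apart from TIPARP, and AHRR from CYP1A1. In RefSeq on GRCh38.p14, AHR lies at chr7:17298652-17346147, AHRR at chr5:321714-438285, CYP1A1 at chr15:74719542-74725528, CYP1B1 at chr2:38067509-38076151, TIPARP at chr3:156674590-156706770 and ALDH1A3 at chr15:100879831-100916626.

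**Figure D1:**
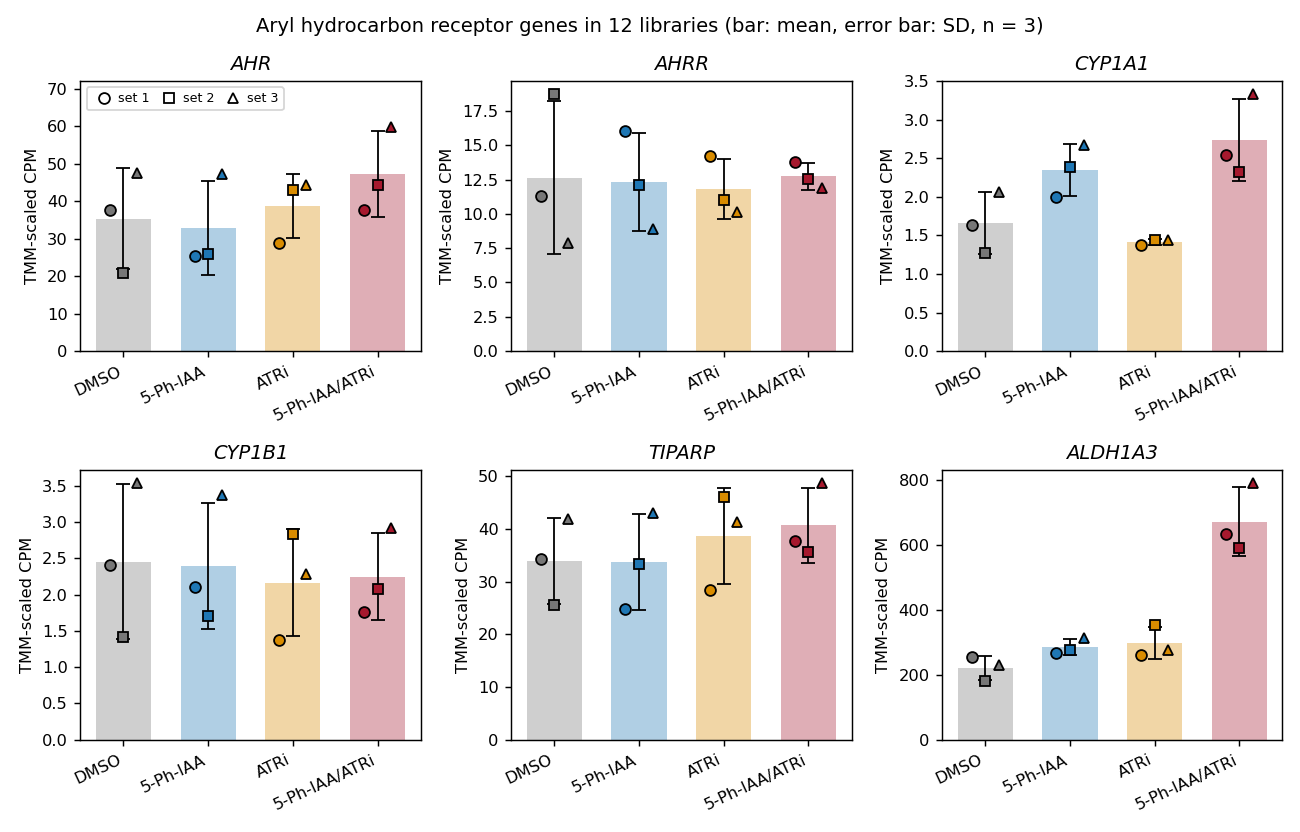
CPM scaled by TMM factors (vertical axis, from 0, a different scale in each panel) of the 6 genes in the 4 groups (horizontal axis). Bars are means, error bars SD of 3 libraries, and markers single libraries by set number; only the ALDH1A3 panel has a group, 5-Ph-IAA/ATRi, whose 3 libraries lie above all 9 others.

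Libraries with both compounds did not overlap those with ATRi alone for CYP1A1 and ALDH1A3, and did for the feedback genes AHRR and TIPARP. For CYP1A1 they overlapped those with 5-Ph-IAA alone. The share of all genes without overlap is not given here. The promoters of these 4 genes are shown to set the first pair beside the second. Each is the RefSeq window on GRCh38.p14 from 250 bases before to 50 bases after the start site, 5′ to 3′ on the gene's strand, with every GCGTG, or CACGC where the match is on the other strand, in capitals. The windows are chr15:74725479-74725778 (minus strand) for CYP1A1, chr15:100879581-100879880 (plus strand) for ALDH1A3, chr5:321464-321763 (plus strand) for AHRR and chr3:156674340-156674639 (plus strand) for TIPARP.
CYP1A1: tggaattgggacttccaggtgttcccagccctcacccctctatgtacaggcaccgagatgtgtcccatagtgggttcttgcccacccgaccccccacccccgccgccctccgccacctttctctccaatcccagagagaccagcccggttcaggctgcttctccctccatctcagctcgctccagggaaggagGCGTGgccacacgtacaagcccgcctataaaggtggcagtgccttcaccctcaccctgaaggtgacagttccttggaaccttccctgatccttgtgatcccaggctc
ALDH1A3: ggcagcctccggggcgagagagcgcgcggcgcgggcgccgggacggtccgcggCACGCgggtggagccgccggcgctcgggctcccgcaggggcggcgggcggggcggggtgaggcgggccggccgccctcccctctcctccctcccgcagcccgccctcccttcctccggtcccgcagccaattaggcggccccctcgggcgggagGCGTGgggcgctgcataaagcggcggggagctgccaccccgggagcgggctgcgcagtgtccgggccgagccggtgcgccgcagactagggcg
AHRR: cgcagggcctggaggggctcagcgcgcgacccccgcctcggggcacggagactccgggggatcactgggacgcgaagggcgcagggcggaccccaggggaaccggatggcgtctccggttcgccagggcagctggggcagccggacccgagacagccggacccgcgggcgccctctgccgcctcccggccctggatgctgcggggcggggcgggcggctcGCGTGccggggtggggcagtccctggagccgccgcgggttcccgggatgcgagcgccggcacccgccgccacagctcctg
TIPARP: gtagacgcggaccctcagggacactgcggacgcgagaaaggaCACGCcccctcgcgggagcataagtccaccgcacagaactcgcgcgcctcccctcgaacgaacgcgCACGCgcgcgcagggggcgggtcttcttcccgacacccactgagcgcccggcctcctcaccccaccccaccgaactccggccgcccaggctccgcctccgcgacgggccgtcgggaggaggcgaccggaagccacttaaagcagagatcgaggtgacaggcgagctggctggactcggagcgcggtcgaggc

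CYP1A1 held 1 core match, with its first base at -57 from the start site. ALDH1A3 held 2, at -197 and -43, the first of them on the other strand. TIPARP held 2 on the other strand, at -208 and -142, and AHRR held 1 at -30, the only match among the windows of these genes to the longer TNGCGTG, which contains the core. The window of AHR itself held 1 core match, at +38. CYP1B1 was not in the promoter table. Both strands were searched, and 36.3% of all 27305 windows of 300 bases held at least 1 GCGTG and 5.51% a TNGCGTG, or 44.1% and 6.53% of the 15842 windows of protein-coding genes. A match of 5 bases is therefore common, and it describes the letters only. The best known enhancer of CYP1A1 lies further upstream, outside this window.

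Without ATRi, 5-Ph-IAA moved none of the 6 genes past the threshold (edgeR quasi-likelihood test, Benjamini-Hochberg adjusted p below 0.05 over 18049 genes). In that comparison 0.00554% of all genes passed, which is 1 gene, and 239 had an unadjusted p below 0.05, none of them among the 6. DESeq2 called 18 genes there, also none of the 6. CDKN1A, described below, had means of 218 CPM in DMSO and 435 CPM with 5-Ph-IAA. It missed the threshold in that comparison too (edgeR adjusted p = 0.5324). The edgeR test could thus leave a change of that size uncalled. The lack of calls does not show that the 6 genes were unchanged. The median log2 fold change of the 6 genes was -0.02, beside -0.01 for all genes. CYP1A1 and ALDH1A3 had the only positive values, and the other 4 genes lay between -0.11 and -0.01. These 4 signs rest on single libraries: without DMSO replicate 3 AHR was at 0.17, CYP1B1 at 0.33 and TIPARP at 0.18, and without DMSO replicate 2 AHRR was at 0.37.

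With ATRi present, 5-Ph-IAA raised 1 of the 6 genes, ALDH1A3, where 3.51% of all genes passed (294 higher and 340 lower). That background of 634 genes was 134 to 220 without any 1 library, 1461 with DESeq2 and 3474 with mitochondrial share as a covariate. The 6 log2 fold changes were positive, from 0.05 for CYP1B1 to 1.18 for ALDH1A3, with a median of 0.20 beside -0.0049 for all genes, though those of AHRR, CYP1B1 and TIPARP changed sign in other settings. CYP1A1 came close to the threshold. The comparisons with and without ATRi use different libraries. The test of the difference between them, the interaction, passed for 0 of 6 genes and for 0.0776% of all genes (14), with 1317 genes and, of the 6, ALDH1A3 alone below an unadjusted p of 0.05. DESeq2 called 212 genes for the interaction. In bulk RNA, fewer cells of a kind and less RNA per cell cannot be told apart.

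**Figure D2:**
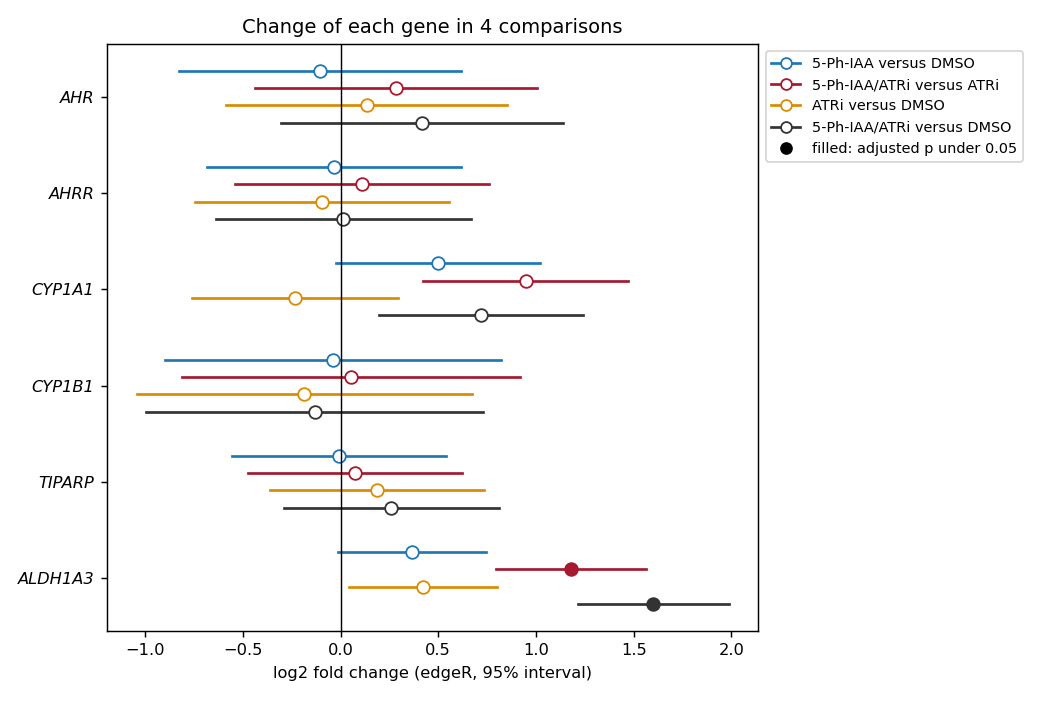
Log2 fold change (horizontal axis) of the 6 genes in 4 comparisons, with 95% intervals from edgeR; filled points passed an adjusted p of 0.05. Only ALDH1A3 has filled points, at 1.18 against ATRi and 1.60 against DMSO, while the intervals of AHR, AHRR, CYP1B1 and TIPARP include 0 in all 4 comparisons.

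AHR, the receptor, was measured at 37.6, 20.9 and 47.4 CPM in DMSO replicates 1, 2 and 3 and at 25.3, 25.8 and 47.3 CPM with 5-Ph-IAA. The groups overlapped almost fully, and the single libraries spread more than the means of 35.3 ± 13.4 and 32.8 ± 12.5 CPM (SD, n = 3) differed. On the log2 scale the fold change was -0.11 ± 0.33 (SE), with a 95% interval from 0.564-fold to 1.53-fold. With ATRi the libraries held 28.9, 43.0 and 44.3 CPM, and with both compounds 37.5, 44.1 and 59.9 CPM. These groups overlapped too, at 0.28 ± 0.33 (0.740-fold to 2.01-fold; edgeR adjusted p = 0.767). With the mitochondrial share of each library as a covariate, AHR was higher with both compounds than with ATRi, at 0.50 (edgeR adjusted p = 0.0312). It was also higher than with DMSO, at 0.85 (edgeR adjusted p = 0.00113). In that fit 3474 of 18049 genes passed against ATRi and 6873 against DMSO. In GENCODE v29 AHR shares 2373 exon bases with AC019117.2 on the same strand, which was listed at 0 to 16 estimated counts.

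AHRR, the repressor that competes with AHR for ARNT, was measured at 11.3, 18.8 and 7.85 CPM in DMSO and at 16.1, 12.1 and 8.88 CPM with 5-Ph-IAA. DMSO replicates 2 and 3 were the highest and the lowest of all 12 libraries. Its log2 fold change was -0.03 ± 0.30 (0.623-fold to 1.53-fold). With ATRi the levels were 14.3, 10.997 and 10.2 CPM and with both compounds 13.8, 12.6 and 11.9 CPM, a log2 fold change of 0.11 ± 0.30 (0.688-fold to 1.69-fold). In GENCODE v29 AHRR shares 244 exon bases with PDCD6, and a read-through gene, PDCD6-AHRR, was listed separately at 0 to 90 estimated counts. The split of reads between AHRR and these genes is therefore uncertain.

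TIPARP encodes a mono-ADP-ribosyltransferase that AHR induces and that acts back on the receptor. Its levels were 34.3, 25.6 and 42.0 CPM in DMSO and 24.8, 33.4 and 43.0 CPM with 5-Ph-IAA, and both groups spanned almost the same range. TIPARP had a log2 fold change of -0.01 ± 0.25, with an interval from 0.680-fold to 1.45-fold. With ATRi the levels were 28.5, 46.1 and 41.3 CPM, and with both compounds 37.7, 35.6 and 48.8 CPM. The log2 fold change was 0.08 ± 0.25 (0.720-fold to 1.54-fold), again with overlapping groups.

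CYP1A1, the P450 enzyme most often used to read out AHR activity, was scarce, at 36 to 94 estimated counts per library. It was measured at 1.64, 1.27 and 2.07 CPM in DMSO and at 1.997, 2.38 and 2.67 CPM with 5-Ph-IAA. Only DMSO replicate 3 reached into the 5-Ph-IAA range. CYP1A1 had a log2 fold change of 0.50 ± 0.24, with an interval from 0.985-fold to 2.03-fold (edgeR adjusted p = 1). By unadjusted edgeR p, 0.0586, it ranked 301 of 18049 genes. With ATRi alone the 3 libraries lay close together, at 1.37, 1.44 and 1.44 CPM, and with both compounds at 2.54, 2.33 and 3.34 CPM. Here the groups did not overlap, and the exact 2-sided permutation p was 0.1, the smallest that 3 against 3 can give.

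The log2 fold change of CYP1A1 with both compounds against ATRi was 0.95 ± 0.24, or 1.93-fold with an interval from 1.34 to 2.78, and missed the threshold (edgeR adjusted p = 0.0546). By unadjusted p the gene ranked 695 of 18049, and 634 genes passed. Against DMSO it was 0.72 ± 0.24 (edgeR adjusted p = 0.0721), again without overlap. DESeq2 placed both past the threshold (adjusted p = 0.00699 and 0.0391), as did the edgeR fit with mitochondrial share (adjusted p = 0.00334 and 0.00424). Leaving out any 1 library gave an edgeR adjusted p of 0.101 to 0.222 against ATRi and 0.0549 to 0.258 against DMSO. With no count filter the edgeR adjusted p was 0.202 against ATRi and 0.279 against DMSO. With 8 libraries, the one of highest mitochondrial share in each group left out, it was 0.171 and 0.2255. The interaction for CYP1A1 was 0.45 ± 0.34 (0.819-fold to 2.27-fold, edgeR adjusted p = 0.96), so a difference between its values with and without ATRi was not shown. CYP1A2, the liver member of the same subfamily, had no count in 10 of 12 libraries and at most 1 elsewhere.

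CYP1B1, the related enzyme that is the more extrahepatic of the CYP1 genes, had similar depth, 40 to 125 estimated counts per library. It was measured at 2.41, 1.41 and 3.54 CPM in DMSO, and at 2.11, 1.71 and 3.37 CPM with 5-Ph-IAA. With ATRi the levels were 1.37, 2.84 and 2.29 CPM, and with both compounds 1.75, 2.07 and 2.91 CPM. Each pair of groups overlapped, and CYP1B1 did not share the separation seen for CYP1A1. The log2 fold changes were -0.04 ± 0.39 without ATRi (0.537-fold to 1.76-fold) and 0.05 ± 0.39 with it (0.570-fold to 1.89-fold). These were the widest intervals of the 6 genes. In GENCODE v29 CYP1B1 shares 678 exon bases with the antisense CYP1B1-AS1, listed at 3 to 10 estimated counts. It shares 96 with RMDN2 on the other strand, listed at 89 to 157.

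ALDH1A3 oxidises retinaldehyde to retinoic acid and has been listed among AHR-responsive genes. It was measured at 254, 181 and 229.5 CPM in DMSO and at 266, 278 and 312 CPM with 5-Ph-IAA. The groups did not overlap, though DMSO replicate 1 and 5-Ph-IAA replicate 1 were close. The log2 fold change was 0.36 ± 0.17, with an interval from 0.990-fold to 1.67-fold (edgeR adjusted p = 1, exact permutation p = 0.1). By unadjusted edgeR p, 0.0578, ALDH1A3 ranked 296 of 18049 genes. With ATRi alone the levels were 262, 353 and 275 CPM, and with both compounds 634, 589 and 792 CPM. Every library with both compounds lay above every other library.

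ALDH1A3 rose 2.26-fold with both compounds against ATRi (log2 fold change 1.18 ± 0.17, interval 1.74 to 2.95, edgeR adjusted p = 0.00599). Leaving out any 1 library kept the call (adjusted p = 0.0122 to 0.0367). With 8 libraries, the one of highest mitochondrial share in each group left out, the log2 fold change was 1.14 and the call was lost (edgeR adjusted p = 0.0656). The interaction was 0.81 ± 0.24 (1.21-fold to 2.55-fold), with an unadjusted p of 0.00637 that missed the threshold after adjustment (edgeR adjusted p = 0.394). In GENCODE v29, 1585 exon bases of ALDH1A3 overlap an antisense gene, which was listed at 41 to 81 estimated counts beside 5146 to 22309 for ALDH1A3, and reads of the pair cannot be told apart without the strand setting.

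Other measures moved with ALDH1A3. The summed epithelial markers were at 4295 to 6385 CPM in DMSO, 4732 to 6345 with 5-Ph-IAA, 5709 to 6509 with ATRi and 9995 to 11440 CPM with both compounds. Of the 7 measurable markers, KRT8 alone rose against ATRi (1.02 ± 0.14, edgeR adjusted p = 0.00415, and 0.0581 with 8 libraries), and KRT8, KRT18 and KRT19 rose against DMSO. Of all genes 3.51% passed against ATRi and 13.1% against DMSO, in either direction, so counts from such short marker lists say little. Against DMSO the call of KRT19 was lost without DMSO replicate 1 (edgeR adjusted p = 0.0547) and that of KRT18 without 5 of 6 libraries in turn, all but DMSO replicate 2 (up to 0.094). Of 2 measurable immune markers CD14 rose against ATRi, to 0.634 CPM (edgeR adjusted p = 0.0311), and lost the call without any 1 library (0.0718 to 0.13). Against DMSO CD14 rose by a log2 fold change of 2.42 (edgeR adjusted p = 0.00183) and kept the call in 13 of 13 other settings. CD3E was at 0 in 9 libraries. CDKN1A, the cell cycle inhibitor induced by p53, was at 218 ± 25.2 CPM in DMSO, 435 ± 81.8 with 5-Ph-IAA, 757 ± 140 with ATRi and 2062 ± 44.5 CPM with both (SD, n = 3). TIMELESS RNA, which does not measure the tagged protein, was at 50.2 ± 18.7 CPM in DMSO and 48.0 ± 13.0 with 5-Ph-IAA (SD, n = 3). It was at 36.5 ± 9.05 CPM with ATRi and 22.2 ± 3.97 CPM with both. With both compounds it was lower than in DMSO (-1.18 ± 0.30, edgeR adjusted p = 0.0233) and not called against ATRi (-0.72 ± 0.29, edgeR adjusted p = 0.2395). The part of these measures in the ALDH1A3 result was not tested.

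ATRi alone moved none of the 6 genes past the edgeR threshold, and 0.0665% of all genes passed (12, with 877 below an unadjusted p of 0.05). DESeq2 called 102 genes. The median of the 6 genes was 0.02 beside -0.02 for all genes. ALDH1A3 had the largest value, 0.42 ± 0.17 (edgeR adjusted p = 0.95), with groups that did not overlap. CYP1A1 was at -0.23 ± 0.24 and CYP1B1 at -0.18 ± 0.39, and both overlapped DMSO. Against the same DMSO libraries, both compounds together raised 1 of 6 genes, ALDH1A3, by 3.03-fold (1.60 ± 0.18, edgeR adjusted p = 0.000253), where 13.1% of all genes passed. AHR was at 0.42 ± 0.33, TIPARP at 0.26 ± 0.25, AHRR at 0.02 ± 0.30 and CYP1B1 at -0.13 ± 0.39, and these 4 did not pass (edgeR adjusted p = 0.469 to 0.983).

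Libraries of the same group varied together in these genes. After subtraction of group means, AHR and AHRR ran in opposite directions over the 12 libraries (Pearson r = -0.923, Spearman rho = -0.979, each with permutation p = 0.000772, the smallest that 1296 rearrangements within groups allow; adjusted p = 0.0054 over 21 relations). Without the 2 most extreme libraries, DMSO 2 and DMSO 3, r was -0.884. Libraries with the same set number in different groups often deviated alike from their group means (median r = 0.378 over all genes tested). The rearrangements do not allow for this, so the permutation p values here and in the next paragraph may be too small. AHR ran with CYP1B1 (r = 0.956, rho = 0.944, permutation p = 0.00309 and 0.00463, adjusted p = 0.0108, 0.930 without DMSO 2 and DMSO 3). It also ran with TIPARP (r = 0.905, rho = 0.937, permutation p = 0.00463 and 0.00309, adjusted p = 0.0139, 0.918 without ATRi 1 and 5-Ph-IAA 1). Such values were common: 12.3% of all genes tested were related to AHR as strongly as AHRR was, 3.5% as strongly as CYP1B1 and 17.7% as strongly as TIPARP.

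The mitochondrial share moved with the same variation. Within groups it ran against AHR (r = -0.915, rho = -0.909, permutation p = 0.000772 and 0.00154, adjusted p = 0.0054, -0.848 without DMSO 2 and 5-Ph-IAA 3). It ran with AHRR (r = 0.947, rho = 0.923, permutation p = 0.000772 and 0.00154, adjusted p = 0.0054, 0.904 without DMSO 2 and 5-Ph-IAA 3). CYP1A1, CYP1B1 and TIPARP had r of -0.785, -0.787 and -0.843. ALDH1A3 had r of -0.555 (rho = -0.503, permutation p = 0.121 and 0.149, adjusted p = 0.121), the weakest of the 6. Of all genes tested, 13.8% were related to mitochondrial share as strongly as AHR, and 5.49% as strongly as AHRR. For CYP1A1, CYP1B1, TIPARP and ALDH1A3 these shares were 41.4%, 41.1%, 31.5% and 67%. The part of mitochondrial share in the spread of these genes was not tested.

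**Figure D3:**
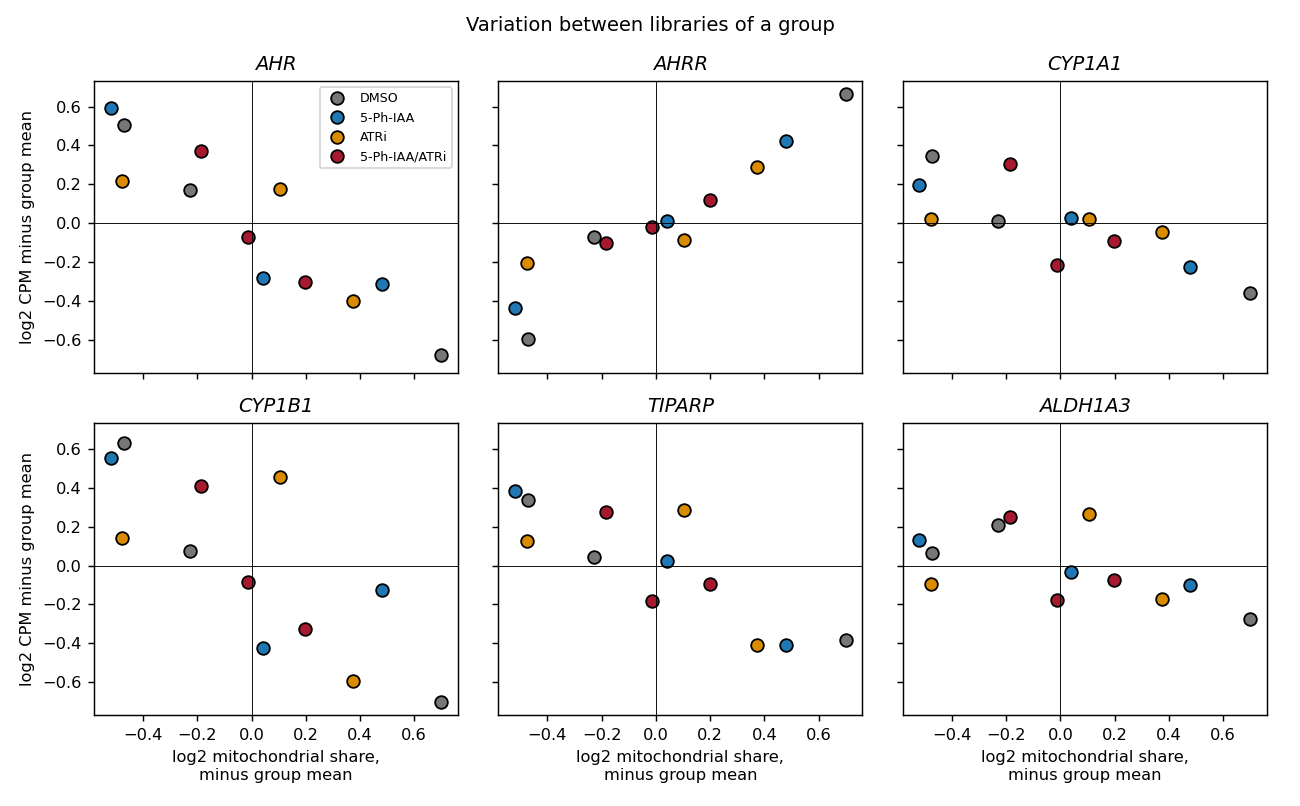
Log2 CPM of each gene (vertical axis) against log2 mitochondrial share (horizontal axis), both after subtraction of the group mean, for 12 libraries coloured by group. AHR falls and AHRR climbs from left to right, with r of -0.915 and 0.947, and the points of ALDH1A3 are the most scattered at -0.555.

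The 6 pathway lists hold 49 measurable genes, including the 6 described above. Under 5-Ph-IAA 0 of 49 passed the threshold without ATRi, where 0.00554% of all genes did, and 3 of 49 with ATRi (6.12%, beside 3.51% of all genes). Of 7 genes for the receptor and its partners, all measurable, 5 had positive values, and the median was 0.03. Of 12 drug metabolism genes 8 were measurable, and their median was 0.17, with ALDH3A1, an aldehyde dehydrogenase of the classic AHR battery, at 0.49 ± 0.28 (1.12 ± 0.225 CPM in DMSO and 1.57 ± 0.449 with 5-Ph-IAA, edgeR adjusted p = 1). Of the 9 feedback and other targets 6 were measurable, with a median of -0.16, and SLC7A5, an amino acid transporter that carries tryptophan and kynurenine, was at -0.38 ± 0.29. The median over all genes was -0.01.

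With ATRi present, 1 of the 8 drug metabolism genes fell under 5-Ph-IAA and none rose, where 3.51% of all genes passed in either direction, so the count says little about the list. This was NQO1, the quinone reductase that both AHR and NFE2L2 induce, at 566 ± 20.6 CPM with ATRi and 345 ± 36.5 CPM with both compounds (-0.71 ± 0.12, edgeR adjusted p = 0.00916). The call for NQO1 was lost without 5-Ph-IAA/ATRi replicate 1 or 3 and with 8 libraries, and the highest adjusted p was 0.12. CYP1A1 and NQO1, both of the battery, thus had values of opposite sign. CYP2S1, another AHR-inducible P450, was at 0.48 ± 0.15 (edgeR adjusted p = 0.105), and the median of the list was 0.09.

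Of the 6 measurable feedback and other targets, ALDH1A3 rose against ATRi and none fell, with a median of -0.15. None of the 7 genes for the receptor and its partners passed: RELB, an NF-kappaB subunit that can pair with AHR, was at 0.55 ± 0.17 (edgeR adjusted p = 0.111) and HSP90AA1, a chaperone of the receptor, at -0.29 ± 0.25 (edgeR adjusted p = 0.647). Of 9 enzymes that act on tryptophan or its products 5 were measurable. AFMID, which makes kynurenine from formylkynurenine, rose from 34.2 ± 2.46 CPM with ATRi to 49.7 ± 4.34 CPM with both compounds (0.54 ± 0.11, edgeR adjusted p = 0.0236). The call for AFMID was lost without each single library in turn (adjusted p = 0.0675 to 0.102), with no count filter (0.144) and with 8 libraries (0.144). IDO1, IDO2 and TDO2, which start the pathway, had at most 4 estimated counts in any library.

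Among 14 measurable bHLH-PAS relatives and coactivators none passed, with PER3, a clock gene, at -0.79 ± 0.33 (edgeR adjusted p = 0.241). Among 9 measurable retinoid genes none passed against ATRi. RDH10, which makes the retinaldehyde that ALDH1A3 uses, was at 0.58 ± 0.16 (edgeR adjusted p = 0.0839), and CRABP2, a retinoic acid binding protein, at -0.75 ± 0.25 (edgeR adjusted p = 0.133). ALDH1A1 had at most 13 estimated counts in a library and did not pass the filter.

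Against DMSO, both compounds together moved 7 genes of these lists beside ALDH1A3, so 8 of 49 or 16.3%, near the 13.1% of all genes. RELB rose by 0.82 ± 0.17 (edgeR adjusted p = 0.00998), CYP2S1 by 0.63 ± 0.15 (0.016), AFMID by 0.79 ± 0.11 (0.000985) and RDH10 by 0.91 ± 0.17 (0.00466). NQO1 fell by 0.56 ± 0.12 (0.00893), SLC7A5 by 1.35 ± 0.29 (0.0108) and AADAT, a kynurenine aminotransferase, by 0.50 ± 0.14 (0.0379). RELB and AFMID kept their calls in 13 of 13 other settings. CYP2S1 lost its call without DMSO replicate 1 or 3 or 5-Ph-IAA/ATRi replicate 1 or 3 (edgeR adjusted p up to 0.0766) and with only the compared groups. SLC7A5 lost it without 5-Ph-IAA/ATRi replicate 2 (edgeR adjusted p = 0.0534) and with 8 libraries (0.0875), NQO1 and RDH10 with 8 libraries (0.0917 and 0.055). AADAT lost it without 5 of the 6 libraries in turn, all but DMSO replicate 3, with no count filter, with only the compared groups and with 8 libraries (edgeR adjusted p up to 0.131).

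**Figure D4:**
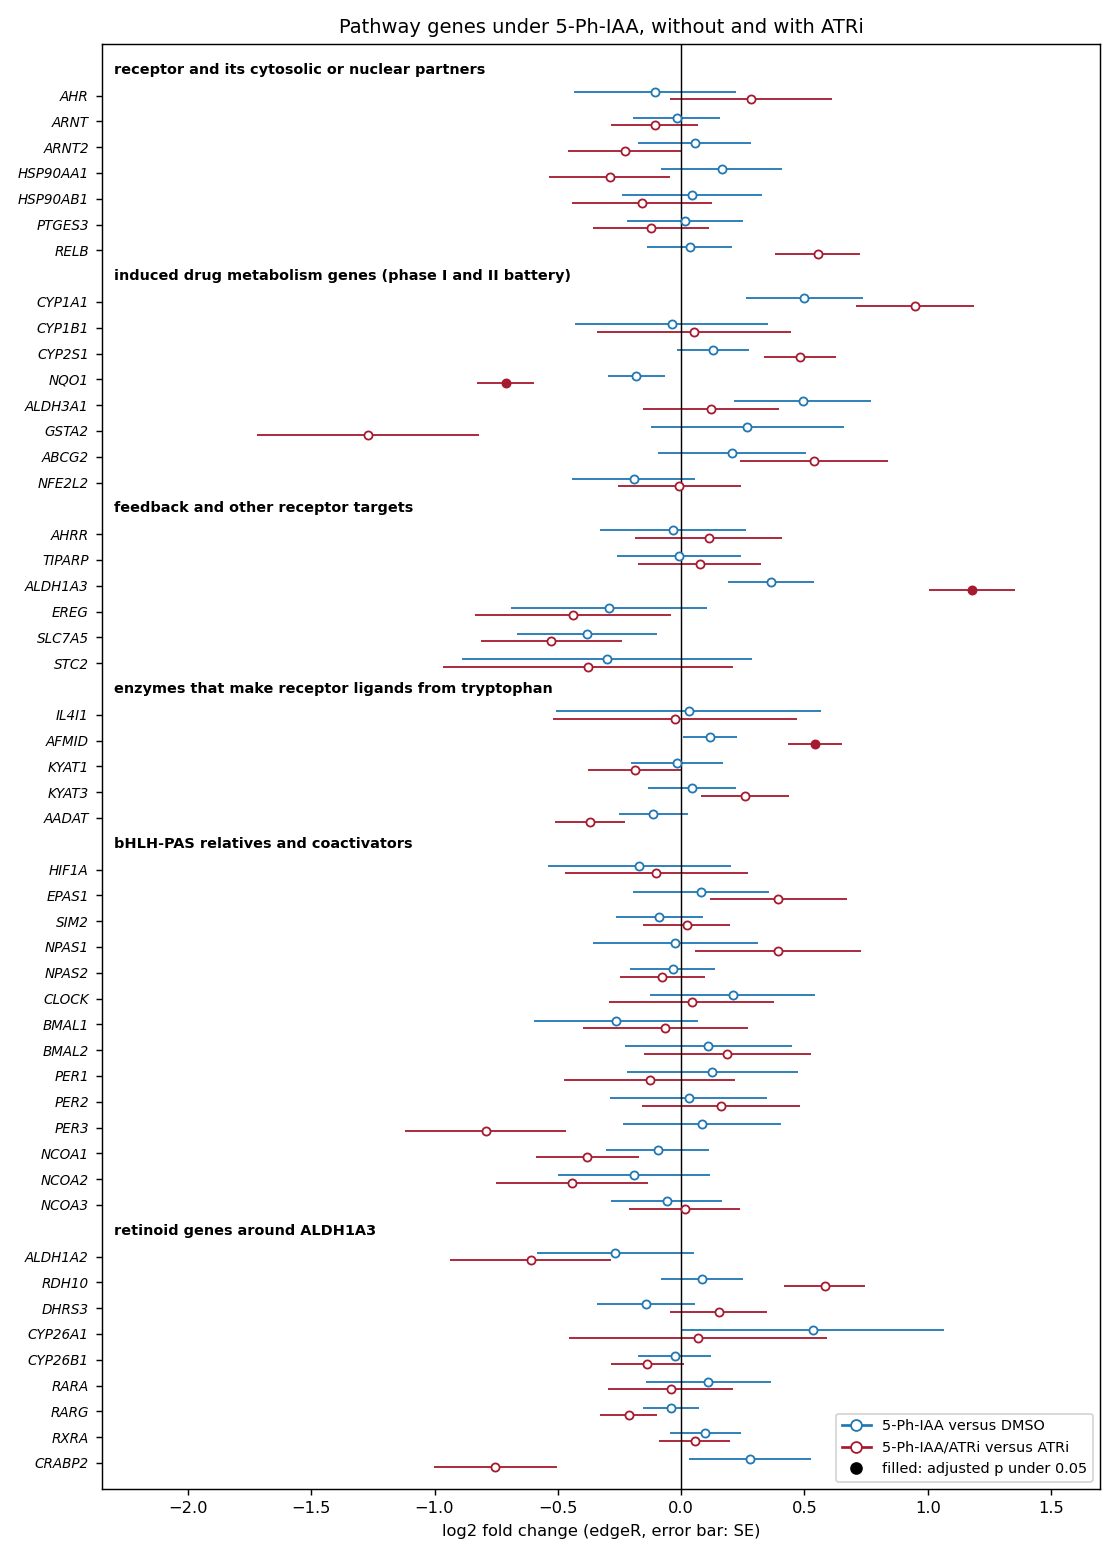
Log2 fold change (horizontal axis, error bars SE from edgeR) of the measurable genes of each pathway list under 5-Ph-IAA, without ATRi (blue) and with ATRi (red). Filled points passed an adjusted p of 0.05: none in blue, and NQO1, ALDH1A3 and AFMID in red.

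The genes whose log2 CPM ran most closely with each gene over the 12 libraries, among those with a mean of at least 5 CPM, differed by gene. They are given as a description, since the points share treatment, depth and mitochondrial share. ALDH1A3 ran with PSTPIP2 (Pearson r = 0.982), TMEM63B (0.978) and DPH1 (0.973). CYP1A1 ran with GRAMD2A (0.914), CLU (0.877) and MAPK8IP2 (0.870), lower values than the closest genes of any other of the 6. AHR ran with VCPIP1 (0.985), PODXL (0.984) and BROX (0.983), and TIPARP with SLC25A46 (0.987), PRKAR1A (0.983) and NFAT5 (0.981). AHRR ran with VWCE (0.976), MICAL1 and GIPR (both 0.973), and CYP1B1 with NPEPPSP1, a pseudogene whose reads may belong to its parent gene (0.924), CMTM6 (0.921) and HEATR1 (0.918). The 6 genes shared none of these 18 neighbours.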

How the data were processed

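RNA of 12 libraries was measured by sequencing. The deposited values are estimated counts per gene that the authors made, and the submitters' processing notes name Salmon 1.10.1, SAMtools 1.17, STAR 2.7.9a, cutadapt 3.4, Trim Galore 0.6.7, FastQC 0.12.1 and build GRCh38.p14. The libraries were made with a directional kit, per the labels' protocols. Neither an annotation release nor a strand setting is given in the sources used here, so reads of overlapping or antisense genes are uncertain. Of the estimated counts above 0, 31.67% were not whole, and all were rounded.

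Counts were filtered with filterByExpr (minimum count 10, total 15), which kept at least 99.8905% of each library, scaled by TMM and tested with edgeR 4.0.16 (R 4.3.3, limma 3.58.1), 1 mean per group over 12 libraries, Benjamini-Hochberg adjusted p below 0.05. SE is the log2 fold change divided by the square root of F, and intervals are 95%. The median biological coefficient of variation was 0.214. The code was tested on simulated data. Alternatives were DESeq2 1.42.0, its size factors, no filter, a set term, mitochondrial share, only the compared groups, each library left out and, added after seeing the data, 8 libraries. Relations used log2 CPM with prior count 2 and group means removed. Named genes were the 6 genes, genes of the lists past the threshold or else the 2 of smallest p, the 3 closest genes of each, TIMELESS and CDKN1A. One gene of the receptor list is not reported here. The 6 genes and all lists were chosen with earlier results of these data known. Transcript lengths and exon overlaps are from GENCODE v29, positions and promoters (5 of 6 genes matched) from RefSeq on GRCh38.p14.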

Additional observations from a re-analysis of the deposited data

How the results depend on the processing

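Of 420 log2 fold changes of single genes under other settings, 363 kept their direction and their side of the threshold, 1 lost its call, 9 gained one and 47 changed sign, and those that changed sign belonged to AHR, AHRR, CYP1B1 and TIPARP. ALDH1A3 stayed positive in every comparison and setting run, and CYP1A1 in the 4 that involve 5-Ph-IAA. The causes of the differences below were not tested, except that fewer libraries leave fewer degrees of freedom. CYP1A1 and CYP1B1 rest on 36 to 125 estimated counts per library. For 5-Ph-IAA versus DMSO the SE was 0.24 for CYP1A1, 0.39 for CYP1B1 and 0.33 for AHR, which had 592 to 1686 estimated counts, so precision did not follow depth alone, and 3 libraries per group left intervals as wide as 0.537-fold to 1.76-fold.

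With no count filter the number of genes called was 0 for 5-Ph-IAA versus DMSO, 28 for ATRi versus DMSO (24 higher and 4 lower, beside 12 and 0) and 47 for the interaction. The DESeq2 test called 18 genes for 5-Ph-IAA versus DMSO, 212 for the interaction and 102 for ATRi versus DMSO. With both compounds it called 1461 of the 18049 genes against ATRi and 3271 against DMSO. In each of these 2 comparisons 2 of the 6 genes passed, ALDH1A3 and CYP1A1. Only the compared groups gave 0, 970 and 0 genes for 5-Ph-IAA versus DMSO, 5-Ph-IAA/ATRi versus ATRi and ATRi versus DMSO.

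With mitochondrial share as a covariate, 8, 3474, 304, 143 and 6873 genes passed for 5-Ph-IAA versus DMSO, 5-Ph-IAA/ATRi versus ATRi, the interaction, ATRi versus DMSO and 5-Ph-IAA/ATRi versus DMSO. Under both compounds it called 3 of the 6 genes against ATRi, beside 3474 of 18049 genes. Against DMSO it called 4, beside 6873 (TIPARP at 0.53, edgeR adjusted p = 0.0155). It turned CYP1B1 to 0.0804, 0.0346 and 0.29 for 5-Ph-IAA, ATRi and both against DMSO, TIPARP to 0.0394 for 5-Ph-IAA versus DMSO, and AHRR to -0.0762 against ATRi, -0.0167 for the interaction and -0.24 for both against DMSO. Under this setting 87 genes were higher and 56 lower for ATRi versus DMSO.

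With 8 libraries, 0, 64, 0 and 1 genes passed for 5-Ph-IAA versus DMSO, 5-Ph-IAA/ATRi versus ATRi, the interaction and ATRi versus DMSO, and 0 of the 6 genes against ATRi. AHRR turned to 0.14 for 5-Ph-IAA and 0.15 for ATRi against DMSO. TIPARP turned to 0.00854 for 5-Ph-IAA versus DMSO, -0.0499 against ATRi and -0.0585 for the interaction, and CYP1B1 to -0.0391 against ATRi.

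The set numbers in the titles were tested as a replicate block, without a statement in the labels that a set was a batch. Deviations from group means of same-numbered libraries correlated at -0.0936 to 0.756 (median 0.378, 13 of 18 above 0.1). Those of differently numbered ones correlated at -0.738 to 0.591 (median -0.205). In 23 of 36 cases a library correlated best with its own number in another group. The replicate block gave 1980, 215, 100 and 4569 genes for 5-Ph-IAA/ATRi versus ATRi, the interaction, ATRi versus DMSO and 5-Ph-IAA/ATRi versus DMSO, and 2 of the 6 genes (ALDH1A3 and CYP1A1, the latter with edgeR adjusted p = 0.0134 and 0.0205) in each comparison of both compounds.

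Leaving out 1 library at a time gave 0 genes for 5-Ph-IAA versus DMSO whichever was left out, 134 to 220 for 5-Ph-IAA/ATRi versus ATRi, 2 to 15 for the interaction, 3 to 11 for ATRi versus DMSO and 1236 to 2376 for 5-Ph-IAA/ATRi versus DMSO. For 5-Ph-IAA versus DMSO, AHR ranged from -0.47 to 0.17, AHRR from -0.28 to 0.37, CYP1B1 from -0.37 to 0.33 and TIPARP from -0.22 to 0.18, the ends set by DMSO replicates 2 and 3 and 5-Ph-IAA replicate 3. Against ATRi, CYP1B1 ranged from -0.19 to 0.30 and TIPARP from -0.11 to 0.22. For the interaction AHRR ranged from -0.26 to 0.39, CYP1B1 from -0.29 to 0.42 and TIPARP from -0.11 to 0.29. For ATRi versus DMSO, AHR ranged from -0.13 to 0.41, AHRR from -0.35 to 0.30 and CYP1B1 from -0.46 to 0.18. For both compounds against DMSO, AHRR ranged from -0.24 to 0.41 and CYP1B1 from -0.41 to 0.23.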
